A study of Homo sapiens with 8 samples.

Results

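A set of 38 genes of the unfolded protein response and of protein folding in the endoplasmic reticulum (ER) was followed in multiple myeloma (MM) cell lines treated with THZ1. They were taken from a list of gene symbols, not from their values, and make up 38 of the 63677 genes in the count table. All 38 symbols were found. For the 2 that had more than one gene ID, HYOU1 and MANF, the ID with the highest summed count was used. By role the list holds 5 sensors and transcription factors, 9 chaperones and co-chaperones, 2 lectin chaperones, 6 genes of disulfide formation, 10 of ER-associated degradation, 3 of the translocon, 2 subunits of the eIF2alpha phosphatase and WFS1, an ER membrane protein tied to calcium handling.

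Proteins bound for secretion enter the ER through the translocon, are folded there by chaperones, lectins and disulfide isomerases, and are sent back to the cytosol for degradation when folding fails. When unfolded protein builds up, 3 ER membrane sensors respond: IRE1 (gene ERN1), which splices the XBP1 mRNA, PERK (gene EIF2AK3), which phosphorylates eIF2alpha and so slows translation, and ATF6, which is cut and released as a transcription factor. XBP1 and ATF6 then raise chaperone and degradation genes, and plasma cells, from which MM arises, depend on XBP1 for antibody secretion. Counts per gene do not separate the spliced from the unspliced XBP1 mRNA, nor do they show the cutting of ATF6 or phosphorylation of any sensor.

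By their labels, the libraries were made from 2 MM cell lines, JJN3 and H929. Each line was grown for 24 h with 50 nM THZ1, a covalent inhibitor of the kinase CDK7, or for the same time with the vehicle DMSO. There were 2 libraries in each of the 4 groups, 8 in all, with total counts of 17476443 to 19194371. The labels do not say whether the 2 libraries of a group came from separate cultures, so p-values measure only the spread between these libraries. In bulk RNA, fewer cells of a kind and less RNA per cell cannot be told apart.

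The libraries labelled H929 stood apart from each other in ways that the JJN3 libraries did not. Between the DMSO and THZ1 labels their log2 CPM correlated at 0.803 to 0.824 across genes, against 0.966 to 0.974 for the same pairs in JJN3 and 0.822 to 0.830 between JJN3 DMSO and libraries labelled H929 DMSO. On immunoglobulin light-chain V genes, the libraries labelled H929 DMSO had 31156 and 28733 counts on lambda and 3 and 597 on kappa genes, whereas lambda genes held 0.194% to 0.203% of these counts under the label H929 THZ1. The 4 JJN3 libraries were alike in this, with lambda shares of 0.244% to 0.369%. A difference between the H929 labels therefore holds the difference in light chain, and all else that sets these libraries apart, as well as the treatment. Whether both H929 labels come from the same cells was not tested, and the results below start from JJN3 alone. In each group 9 of 10 plasma cell markers had at least 1 CPM in both libraries, though not the same 9. TNFRSF13B was below this in JJN3 (0.0604 to 0.606 CPM) and under the label H929 THZ1 (0.215 and 0.480 CPM), and SLAMF7 was at 0.109 CPM in replicate 1 of H929 DMSO. The 10 markers had a summed level of 3284 to 4436 CPM in JJN3 and in libraries labelled H929 DMSO, and of 10708 to 10718 CPM in those labelled H929 THZ1. Markers of T and NK, myeloid, erythroid and stromal cells summed to at most 5.03 CPM in any library, except the T and NK cell markers under the label H929 THZ1 (35.8 to 36.3 CPM). The B cell markers summed to 6.29 to 65.8 CPM, with CD22 at 0 in all 4 groups, and their part in the results was not tested.

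The 38 genes span a wide range of levels in JJN3 cells with DMSO. Per kb of canonical transcript, CALR (calreticulin, a lectin chaperone) stood first with DMSO at 839 ± 45.2 CPM per kb (SD, n = 2), followed by HSP90B1 (GRP94, the ER member of the HSP90 family) at 772 ± 17.0 CPM per kb. These neighbours differed by little more than the SD of CALR. CANX (calnexin) followed well below at 426 ± 0.453 CPM per kb and P4HB at 324 ± 10.7 CPM per kb. XBP1 came next at 302 ± 2.03 CPM per kb. Of the sensors, ATF6 stood in the middle of the order at 41.3 ± 0.378 CPM per kb, and EIF2AK3 at 3.72 ± 0.492 and ERN1 at 1.82 ± 0.114 CPM per kb stood near its end. ERO1LB was last at 0.103 ± 0.0444 CPM per kb, with counts of 7 to 13 per JJN3 library, too few to show any but a very large change. Together the 38 genes took 1.29% and 1.35% of all counts in JJN3 with DMSO and 1.52% and 1.32% with THZ1.

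**Figure D1:**
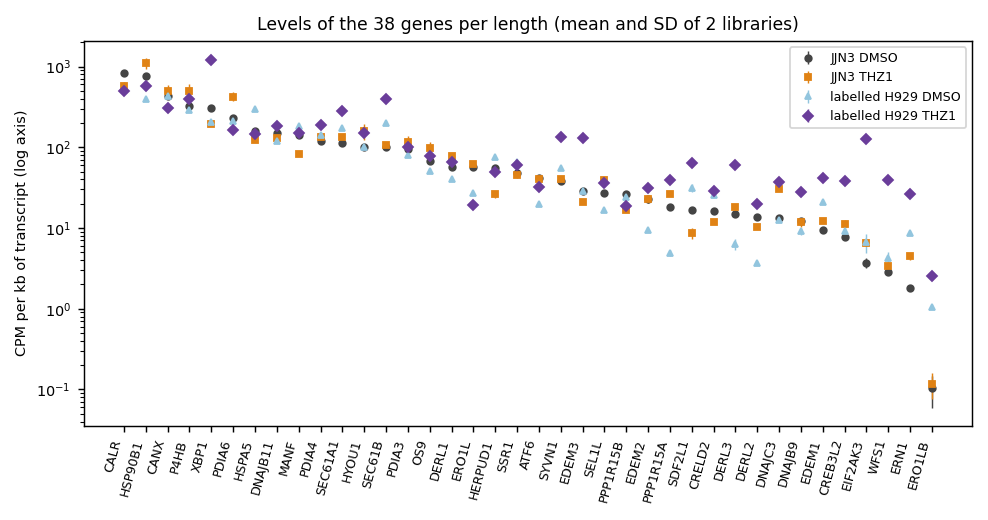
Level of each of the 38 genes in CPM per kb of canonical transcript, on a log axis, as the mean and SD of 2 libraries for the 4 groups, ordered by the level in JJN3 with DMSO. CALR and HSP90B1 lead and ERO1LB is lowest in JJN3, and XBP1, EIF2AK3 and WFS1 lie far above the other groups under the label H929 THZ1.

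Promoters of several of these genes carry the letters of the ER stress response elements, to which ATF6 and XBP1 bind together with NF-Y. RefSeq promoter windows on GRCh38.p14, from 250 bases before to 50 bases after a start site, were available for 35 of the 38 genes (ERO1L and ERO1LB under their newer symbols ERO1A and ERO1B), and PDIA3, DERL1 and DERL3 had none. The start site was that of the annotated gene for 30 of the 35, and another one for EIF2AK3, CANX, PDIA4, PDIA6 and DERL2. The element ERSE, spelled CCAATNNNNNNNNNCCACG and searched on both strands, was present in 7 of the 35 windows (20%) and in 27 of all 35116 windows (0.0769%). ERSE-II, spelled ATTGG, any base and then CCACG, was present in 3 of the 35 (8.57%) and in 19 of all windows (0.0541%). No window of the 35 held both, so 10 of 35 held one or the other (28.6%), against 0.131% of all windows. The genes were listed for the pathway that these elements belong to, so this excess is not an independent result. The ERSE genes were XBP1, HSPA5, HSP90B1, CRELD2, CALR, CANX and ERO1LB, and the ERSE-II genes were HYOU1, SDF2L1 and HERPUD1. Both elements end in CCACG, a half-site that alone was present in 38.1% of all windows and in 24 of the 35. The core of the XBP1-binding element UPRE, TGACGTG, was present in 1 of the 35 (HYOU1) and in 1.97% of all windows. In HYOU1 this core, which starts at -188, overlaps the ERSE-II match that starts at -185, so it is not a separate stretch. For the ATF4-binding element CARE only the spelling TGATGCAAT was searched, and it was present in 0 of the 35 and in 0.236% of all windows. Other spellings of CARE were not searched, so this 0 does not show that the windows lack the element. A match is a description of the letters, not of binding. The 250 bases before the start are printed for the 6 genes with an element that changed in JJN3, 5′ to 3′ on the strand of the gene, with the element in capitals. An element on the other strand appears as its reverse complement, which begins with CGTGG.
XBP1 (chr22:28800570-28800819, minus strand): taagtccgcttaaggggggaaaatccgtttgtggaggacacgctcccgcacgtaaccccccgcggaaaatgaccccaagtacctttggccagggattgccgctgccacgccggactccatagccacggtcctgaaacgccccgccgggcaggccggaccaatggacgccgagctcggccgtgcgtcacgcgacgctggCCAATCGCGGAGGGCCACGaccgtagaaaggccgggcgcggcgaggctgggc
SDF2L1 (chr22:21642052-21642301, plus strand): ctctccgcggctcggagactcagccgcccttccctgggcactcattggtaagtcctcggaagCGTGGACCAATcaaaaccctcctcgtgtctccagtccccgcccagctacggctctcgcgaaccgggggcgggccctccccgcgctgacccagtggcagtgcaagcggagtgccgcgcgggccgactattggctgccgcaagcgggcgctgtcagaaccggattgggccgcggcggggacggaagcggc
HERPUD1 (chr16:56931892-56932141, plus strand): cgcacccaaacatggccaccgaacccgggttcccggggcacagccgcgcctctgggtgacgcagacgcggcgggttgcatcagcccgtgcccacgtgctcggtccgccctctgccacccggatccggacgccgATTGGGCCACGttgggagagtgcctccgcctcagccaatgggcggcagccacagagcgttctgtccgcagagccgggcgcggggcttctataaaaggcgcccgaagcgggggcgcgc
CALR (chr19:12938359-12938608, plus strand): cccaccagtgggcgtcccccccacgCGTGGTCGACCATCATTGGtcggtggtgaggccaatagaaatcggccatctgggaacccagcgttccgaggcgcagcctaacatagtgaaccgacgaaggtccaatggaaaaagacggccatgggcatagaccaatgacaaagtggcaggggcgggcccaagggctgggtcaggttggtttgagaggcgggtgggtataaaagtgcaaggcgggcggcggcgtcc
HSP90B1 (chr12:103930160-103930409, plus strand): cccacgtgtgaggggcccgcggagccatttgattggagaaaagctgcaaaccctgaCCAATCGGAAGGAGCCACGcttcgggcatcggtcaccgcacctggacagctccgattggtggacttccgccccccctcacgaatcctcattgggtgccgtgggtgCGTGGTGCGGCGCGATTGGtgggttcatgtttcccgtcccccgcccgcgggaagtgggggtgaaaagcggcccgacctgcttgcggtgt
HYOU1 (chr11:119057206-119057455, minus strand): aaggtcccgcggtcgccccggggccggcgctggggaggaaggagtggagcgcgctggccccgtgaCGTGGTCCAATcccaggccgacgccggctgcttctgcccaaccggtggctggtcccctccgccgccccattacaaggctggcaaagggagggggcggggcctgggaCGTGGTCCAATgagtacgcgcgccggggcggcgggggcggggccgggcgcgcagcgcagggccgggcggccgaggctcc

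In JJN3, THZ1 left the pathway neither uniformly up nor down. Of the 38 genes, 11 rose (28.9%) and 6 fell (15.8%), against 20.6% higher and 21.3% lower among the 13984 genes tested. The 17 called in either direction stand against 41.8% of all genes, and 21 were not called. These shares are not far from those of all genes, so the counts show nothing particular to the set, and the results lie in which genes moved. The genes that rose were ERN1, EIF2AK3, CREB3L2, HSP90B1, HYOU1, DNAJC3, PDIA6, P4HB, SEL1L, OS9 and PPP1R15A, and those that fell were XBP1, SDF2L1, MANF, CALR, HERPUD1 and PPP1R15B. A gene was called where edgeR's quasi-likelihood test gave a Benjamini-Hochberg adjusted p under 0.05 and the log2 fold change of THZ1 over DMSO was beyond 0.5. The median log2 fold change was 0.18 over the 38 genes and -0.00 over all genes tested. Because the libraries are scaled to each other, a rise or fall here is relative to the other genes. A change in all mRNA together would not be seen. In CPM, the THZ1 libraries lay above both DMSO libraries for 22 of the 38 genes and below both for 11, with overlap for 5, where 39.4% of all genes tested lay above and 40.5% below. The count of rises rested on 1 library and on the scaling. Without THZ1 replicate 1 the fit called 6 rises (15.8%, against 18.6% of all genes), and with total counts in place of TMM factors it called 6 rises and 8 falls, against 16.8% and 26.0% of all genes, where the median of all genes shifted by -0.10. Mitochondrial genes took 3.36% and 1.65% of counts with DMSO and 5.34% and 6.63% with THZ1, and their part in these results was not tested.

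**Figure D2:**
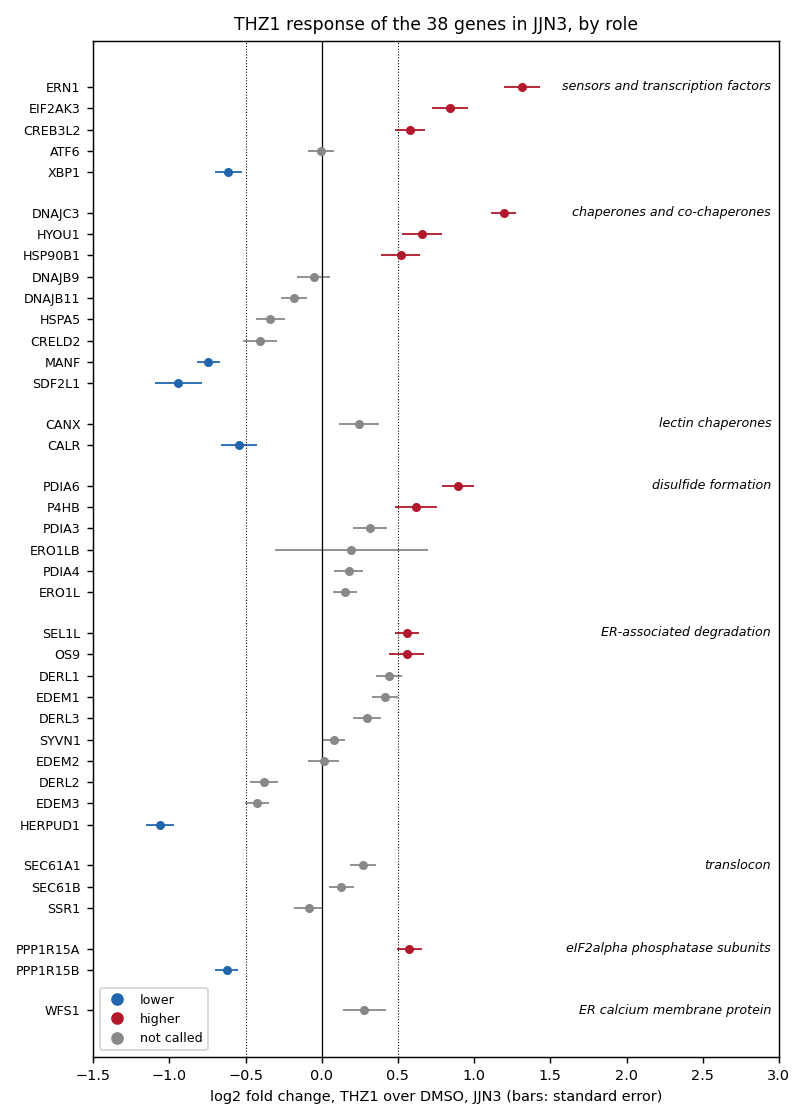
Log2 fold change of THZ1 over DMSO in JJN3 for the 38 genes, grouped by role, with bars for the standard error of edgeR's fit on 2 libraries per group and dotted lines at the limits of -0.5 and 0.5. Genes called higher (11) and lower (6) occur side by side within the sensors, the chaperones, the degradation genes and the phosphatase subunits; the signs of ATF6, EDEM2 and SYVN1, all close to 0, change with the scaling.

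Among the sensors and transcription factors, the mRNAs of 2 sensors rose and that of XBP1 fell. ERN1, which encodes IRE1, had 14.7 and 13.5 CPM with DMSO and 32.5 and 37.4 CPM with THZ1 (log2 fold change 1.31, SE 0.116, adjusted p = 5.44e-06). Both THZ1 libraries were above both DMSO libraries, by 2.49-fold on average, the largest rise of the 38 genes. EIF2AK3, which encodes PERK, had 18.0 and 15.0 CPM with DMSO and 28.7 and 30.6 CPM with THZ1 (log2 fold change 0.84, SE 0.119, adjusted p = 0.000125), again without overlap and 1.79-fold on average. ATF6, the third sensor, had 303 and 301 CPM with DMSO and 312 and 291 CPM with THZ1 (log2 fold change -0.00, SE 0.0833, adjusted p = 0.967). Its groups overlapped, and its counts of 5169 to 6006 per library left an SE well under the limit for a call. XBP1, the transcription factor whose mRNA IRE1 splices, had 527 and 534 CPM with DMSO and 338 and 356 CPM with THZ1 (log2 fold change -0.61, SE 0.0862, adjusted p = 0.00012). Its THZ1 libraries lay below both DMSO libraries, at 0.654 of the DMSO mean, so the mRNA of the splicing enzyme and that of its substrate moved in opposite directions. CREB3L2, an ATF6-like factor that is also cleaved in the membrane, had 58.2 and 53.1 CPM with DMSO and 89.7 and 76.8 CPM with THZ1 (log2 fold change 0.58, SE 0.0961, adjusted p = 0.000375). Its call was lost without THZ1 replicate 1 (log2 fold change 0.46).

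Of the 9 chaperones and co-chaperones, 3 were higher (33.3%, against 20.6% of all genes) and 2 lower (22.2%, against 21.3%). Their median log2 fold change was -0.18. DNAJC3 (p58IPK), a co-chaperone of BiP that also restrains PERK, had 75.3 and 69.8 CPM with DMSO and 171 and 161 CPM with THZ1 (log2 fold change 1.19, SE 0.0821, adjusted p = 1.31e-06). The THZ1 libraries were more than double the DMSO libraries (2.29-fold) and the groups did not overlap. HYOU1 (GRP170), the exchange factor of BiP, had 452 and 460.5 CPM with DMSO and 829.8 and 609.7 CPM with THZ1 (log2 fold change 0.66, SE 0.130, adjusted p = 0.00124). HSP90B1 had 2067 and 2143 CPM with DMSO and 3345 and 2681 CPM with THZ1 (log2 fold change 0.52, SE 0.131, adjusted p = 0.00549). In both genes THZ1 replicate 1 was the higher of the pair, and without it the log2 fold changes of 0.41 and 0.35 were no longer called. SDF2L1, a partner of the BiP co-chaperone DNAJB11, had 13.7 and 13.6 CPM with DMSO and 6.28 and 7.93 CPM with THZ1 (log2 fold change -0.94, SE 0.155, adjusted p = 0.000358). MANF, an ER stress-induced secreted protein that binds BiP, had 125 and 126 CPM with DMSO and 76.9 and 73.2 CPM with THZ1 (log2 fold change -0.74, SE 0.0777, adjusted p = 1.5e-05). Both were lower in each THZ1 library than in either DMSO library, at 0.521 and 0.597 of the DMSO mean. HSPA5, which encodes BiP itself, the main ER HSP70 and a standard marker of ER stress, had 574 and 634 CPM with DMSO and 494 and 461 CPM with THZ1 (log2 fold change -0.34, SE 0.0949, adjusted p = 0.00971). Its groups did not overlap and its adjusted p passed, but the change was smaller than the limit and it was not called. CRELD2 was close to it (log2 fold change -0.41), while DNAJB9 (-0.05) and DNAJB11 (-0.18), both co-chaperones of BiP, had adjusted p-values of 0.706 and 0.0846 in edgeR's test.

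The calnexin and calreticulin pair, lectins that hold glycoproteins for folding, did not move together. CALR had 1499.8 and 1627 CPM with DMSO and 1169 and 975 CPM with THZ1 (log2 fold change -0.54, SE 0.117, adjusted p = 0.00215). Both THZ1 libraries were lower, but the call was lost without THZ1 replicate 2 (log2 fold change -0.42). CANX had 2044 and 2058 CPM with DMSO and 2719.8 and 2133 CPM with THZ1 (log2 fold change 0.24, SE 0.132, adjusted p = 0.135), a difference within the spread of the THZ1 libraries, of which replicate 1 was the higher.

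Genes of disulfide formation all had positive log2 fold changes, from 0.15 to 0.89. Of the 6, 2 were called higher (33.3%, against 20.6% of all genes) and 0 lower (against 21.3%). PDIA6, a disulfide isomerase that also damps IRE1 signalling, had 509.9 and 522 CPM with DMSO and 1040.1 and 876 CPM with THZ1 (log2 fold change 0.89, SE 0.107, adjusted p = 3.8e-05). Both THZ1 libraries lay far above the DMSO libraries, 1.86-fold on average. P4HB (PDI, the archetype of the family) had 754 and 794 CPM with DMSO and 1379.8 and 997 CPM with THZ1 (log2 fold change 0.62, SE 0.140, adjusted p = 0.00281). The 2 THZ1 libraries differed from each other here, and without replicate 1 the log2 fold change of 0.36 was not called. PDIA3 (0.31), PDIA4 (0.18), the oxidase ERO1L (0.15) and its paralogue ERO1LB (0.19, SE 0.503) were not called, and the sign for ERO1LB, with 7 to 13 counts per library, turned when DMSO replicate 2 or THZ1 replicate 1 was left out.

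Among the 10 genes of ER-associated degradation, the deepest fall of the whole set stood beside modest rises. HERPUD1, a membrane scaffold of the degradation complex and a common target of ATF6, XBP1 and ATF4, had 146 and 161 CPM with DMSO and 68.1 and 79.2 CPM with THZ1 (log2 fold change -1.06, SE 0.0942, adjusted p = 5.44e-06). Both THZ1 libraries lay far below the DMSO libraries, at 0.479 of the DMSO mean. SEL1L, the adaptor of the ubiquitin ligase HRD1, had 207 and 211 CPM with DMSO and 304 and 312 CPM with THZ1 (log2 fold change 0.56, SE 0.0798, adjusted p = 0.000132). OS9, a lectin that delivers glycoproteins to SEL1L, had 171 and 182 CPM with DMSO and 294 and 226 CPM with THZ1 (log2 fold change 0.56, SE 0.114, adjusted p = 0.00151). SEL1L was similar in both THZ1 libraries but not called with total counts (0.46), and OS9 was higher in replicate 1 and not called without it (0.35). SYVN1, which encodes HRD1 itself, had a log2 fold change of 0.08 (adjusted p = 0.399 in edgeR's test), so the adaptor was called and the ligase was not. The mannosidase-like EDEM1 (0.42), EDEM2 (0.01) and EDEM3 (-0.42) spread from a positive to a negative value, as did the derlins DERL1 (0.44), DERL2 (-0.38) and DERL3 (0.30). None of these 6 passed the limit on the fold change, although the adjusted p was under 0.05 for 5 of them, all but EDEM2.

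None of the 3 translocon genes passed the limit on the fold change, although the adjusted p of edgeR's test was under 0.05 for 1 of them. SEC61A1 (log2 fold change 0.27) and SEC61B (0.13), subunits of the channel, and SSR1 (-0.09), of the associated TRAP complex, were all within 0.27 of 0. The 2 regulatory subunits that bring protein phosphatase 1 to eIF2alpha went opposite ways. PPP1R15A (GADD34), the stress-induced subunit, had 41.9 and 41.2 CPM with DMSO and 62.3 and 61.3 CPM with THZ1 (log2 fold change 0.57, SE 0.0824, adjusted p = 0.000138). PPP1R15B (CReP), the constitutive subunit, had 133 and 136 CPM with DMSO and 88.0 and 86.4 CPM with THZ1 (log2 fold change -0.62, SE 0.0763, adjusted p = 4.42e-05). Neither gene overlapped between groups, but the call for PPP1R15A was lost with total counts (0.47). PPP1R15B is among the genes that the study selected for sensitivity to THZ1 in these libraries, so its fall is not independent evidence. WFS1 had 9.95 and 10.3 CPM with DMSO and 13.3 and 11.3 CPM with THZ1 (log2 fold change 0.28, SE 0.143, adjusted p = 0.113) and was not called.

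**Figure D3:**
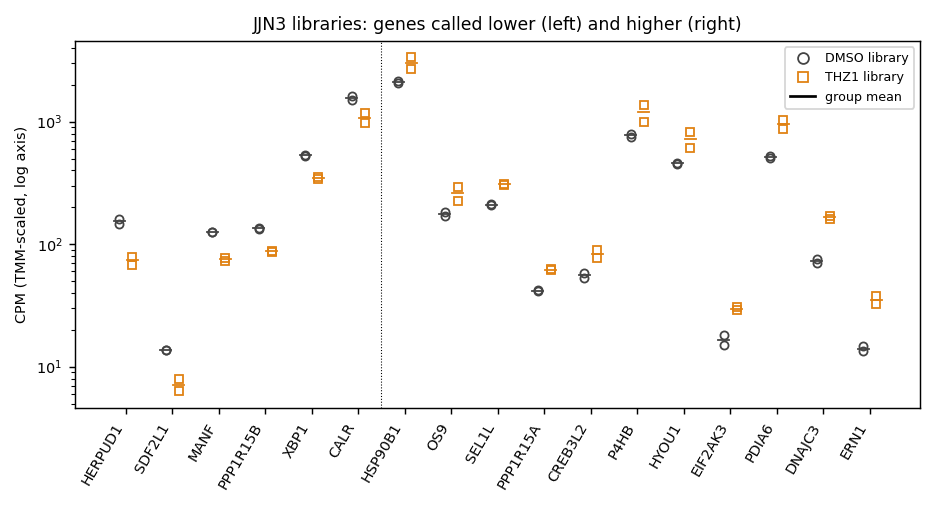
CPM in each JJN3 library, on a log axis, for the 6 genes called lower (left of the dotted line) and the 11 called higher (right), with circles for DMSO, squares for THZ1 and short lines for the mean of 2 libraries. The groups do not overlap for any of the 17 genes, which the call favours, and the THZ1 squares are furthest apart for genes such as P4HB, HYOU1 and OS9.

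Some fit lost 7 of the called rises. Total counts lost CREB3L2 (0.48), HSP90B1 (0.41), SEL1L (0.46), OS9 (0.45) and PPP1R15A (0.47). Leaving out THZ1 replicate 1 lost CREB3L2 (0.46), HSP90B1 (0.35), HYOU1 (0.41), P4HB (0.36) and OS9 (0.35). CREB3L2, HSP90B1 and OS9 were also lost in a fit without 1 of the DMSO libraries, and HSP90B1 with no filter (0.48), whereas ERN1, EIF2AK3, DNAJC3 and PDIA6 were called in all fits that were run, apart from the stricter limit on the fold change. Of the falls, 5 of 6 were kept under the same fits, all but CALR. Over all 38 genes, 27 were higher in THZ1 replicate 1 than in replicate 2 of JJN3, 8 of them by over 0.25 on the log2 scale, against 14 and 2 between the DMSO libraries. The median log2 ratio of replicate 1 over 2 was 0.091 with THZ1 and -0.023 with DMSO. These counts depend on which library is numbered first. The shares over all genes were not computed, so the counts only describe the set.

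The genes that fell in JJN3 had short transcripts on the genome. The canonical transcripts of the 6 lower genes span 2.00 to 12.7 kb of the genome with a median of 5.95 kb, and 0 of 6 exceed 20 kb. Those of the 11 higher genes span 3.64 to 127 kb with a median of 29.4 kb, and 7 of 11 exceed 20 kb. Of the 21 genes not called, with a median of 26.8 kb, 12 exceed 20 kb. Among all tested genes with a span, 43.9% of the lower, 60.2% of the higher and 58.7% of those not called exceed 20 kb, so the share among the rises (63.6%) was near that of all genes. PPP1R15A was the shortest gene among the rises, at 3.64 kb. Spearman's rho between span and log2 fold change was 0.50 over the 38 genes and 0.11 over the 13548 tested genes with a span, across genes that are not independent replicates and share these libraries. Under the H929 labels the same rho was 0.14 over the 38 genes and 0.066 over 14409 genes. Over all tested genes the median span was 16.6 kb for those called lower and 32.1 kb for those called higher. ER stress elements were found in the promoters of 4 of the 6 lower genes, of 2 of the 11 higher genes and of 4 of the 18 genes not called that had a window. The elements printed above therefore occurred in genes that moved either way: XBP1, SDF2L1, HERPUD1 and CALR fell, and HSP90B1 and HYOU1 rose.

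**Figure D4:**
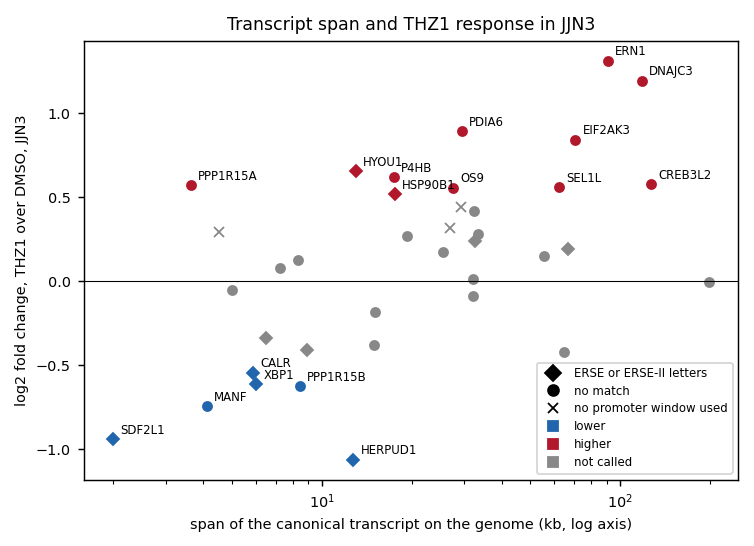
Log2 fold change of THZ1 over DMSO in JJN3 against the genomic span of the canonical transcript (kb, log axis) for the 38 genes, coloured by call, with diamonds for a promoter window that holds the letters of ERSE or ERSE-II. All 6 genes called lower lie at 12.7 kb or below, and rho over the 38 genes is 0.50.

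Other genes of the same pathways, 108 in 5 lists, were read from the same fit. Of the 106 tested in JJN3, 20 fell and 20 rose (18.9% each), with a median log2 fold change of 0.07. Among the stress regulators 11 of 20 fell (55.0%, against 21.3% of all genes) and 4 rose (20%, against 20.6%), with a median of -0.60. This list also holds pro-apoptotic genes such as BAX and BBC3. It was drawn up with earlier results of these data known, so the excess of falls is not an independent result. ATF4, the transcription factor translated when PERK is active, fell with a log2 fold change of -0.92 (adjusted p = 3.09e-05, edgeR). Of its known targets, DDIT3 (CHOP, -0.64) and the pseudokinase TRIB3 (-1.02) fell as well, while ATF3 (0.66) rose. Counts were low for DDIT3 (46 to 96 per JJN3 library). ATF3 had counts of 74 and 68 with DMSO and 75 and 122 with THZ1, so its rise rests mostly on THZ1 replicate 2. These genes were not followed in fits without single libraries. The largest fall in the list was the pro-apoptotic BAX (-1.26), and the largest rises were CREB3L4 (1.83), a relative of CREB3L2, and the pro-apoptotic BBC3 (PUMA, 1.75). In folding and glycan processing 2 of 25 fell, MZB1 (-1.05), a plasma cell co-chaperone of antibody folding, and the glucosidase MOGS (-0.60), and 5 rose, led by the folding sensor UGGT2 (1.24) and the thioredoxin-like TMX4 (0.84). In translocation and signal peptidase 0 of 21 fell and 3 rose, among them SEC63 (0.60), a partner of the channel, and SSR4 (0.57), of the TRAP complex. Of the 12 oligosaccharyltransferase genes, 1 fell, DAD1 (-0.54), and 2 rose, RPN2 (0.93) and DDOST (0.79). Of the 28 other degradation genes, 6 fell, most of all VIMP (-1.05) and UBXN8 (-0.89), which tether the ATPase p97 to the ER,, and 6 rose, among them the ubiquitin ligase MARCH6 (0.89).

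Under the H929 labels the set was shifted upwards, with the reservation that the 2 labels differed in light chain. Of the 38 genes, 25 were higher with the THZ1 label (65.8%) and 2 were lower (5.26%), against 33.1% higher and 32.6% lower among the 14863 genes tested. The 27 called in either direction stand against 65.7% of all genes, and 11 were not called. The median log2 fold change was 0.69 over the 38 genes and 0.01 over all genes. The CPM of the THZ1 label lay above both DMSO libraries for 29 of the 38 genes (45.6% of all genes tested) and below both for 8 (45.4%), with overlap for 1, CALR. The 38 genes took 1.16% and 1.17% of all counts in the DMSO pair and 1.74% and 1.73% in the THZ1 pair. The same 2 genes lower and 25 higher were called in all fits run, apart from the stricter limit on the fold change. Without H929 DMSO replicate 2 the log2 fold changes of CANX (-0.51) and ERO1L (-0.51) were also beyond -0.5.

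All 5 sensors and transcription factors were higher under the THZ1 label, against 33.1% of all genes. EIF2AK3 had 25.0 and 36.4 CPM under the DMSO label and 583 and 584 CPM under the THZ1 label (log2 fold change 4.25, SE 0.105, adjusted p = 6.75e-15), the largest difference of the set. The DMSO replicates differed from each other too, with counts of 459 and 648, and replicate 2, the higher, also held 597 counts on kappa V genes against 3 in replicate 1. XBP1 had 355 and 391 CPM under the DMSO label and 2189.8 and 2184 CPM under the THZ1 label (log2 fold change 2.55, SE 0.0667, adjusted p = 1.21e-14), a 5.87-fold difference without overlap, and per kb of transcript it stood first of the 38 genes under this label at 1200.2 ± 5.45 CPM per kb. ERN1 had 67.9 and 72.2 CPM under the DMSO label and 210.2 and 215 CPM under the THZ1 label (log2 fold change 1.60, SE 0.0565, adjusted p = 3.79e-13). For both XBP1 and ERN1 the replicates of each label lay close together. ATF6 had 151 and 149 CPM under the DMSO label and 239 and 247 CPM under the THZ1 label (log2 fold change 0.70, SE 0.0515, adjusted p = 3.19e-09). The ATF6-like CREB3L2 had 71.6 and 68.3 CPM under the DMSO label and 277 and 297 CPM under the THZ1 label (log2 fold change 2.04, SE 0.0581, adjusted p = 3.3e-14). In each of the 5 genes both libraries with the THZ1 label were above both with the DMSO label.

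The degradation genes followed, with 9 of 10 higher (90%, against 33.1% of all genes). DERL3, the derlin typical of secretory cells, had 17.5 and 21.7 CPM under the DMSO label and 195 and 181 CPM under the THZ1 label (log2 fold change 3.26, SE 0.0827, adjusted p = 8.42e-15), 9.61-fold on average. DERL2 (2.42), EDEM3 (2.15), EDEM2 (1.75), SYVN1 (1.27), SEL1L (1.15), EDEM1 (0.97), DERL1 (0.68) and OS9 (0.62) made up the rest. HERPUD1 was the exception, at 224 and 219 CPM under the DMSO label and 142 and 146 CPM under the THZ1 label (log2 fold change -0.62, SE 0.0513, adjusted p = 1.3e-08). WFS1 had 13.5 and 17.6 CPM under the DMSO label and 151 and 140.3 CPM under the THZ1 label (log2 fold change 3.23, SE 0.0907, adjusted p = 2.72e-14), a 9.38-fold difference. PPP1R15A, the stress-induced phosphatase subunit, had 11.0 and 12.5 CPM under the DMSO label and 96.9 and 92.6 CPM under the THZ1 label (log2 fold change 3.01, SE 0.0835, adjusted p = 2.34e-14), 8.08-fold. In both the groups were far apart, although WFS1, like EIF2AK3, was higher in DMSO replicate 2 than in replicate 1.

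The chaperones were mostly higher with the THZ1 label, 6 of 9 (66.7%, against 33.1% of all genes), but the central one was lower. HSPA5 had 1190.0 and 1197 CPM under the DMSO label and 593 and 566 CPM under the THZ1 label (log2 fold change -1.04, SE 0.0571, adjusted p = 7.87e-11), at 0.486 of the DMSO mean. DNAJB9 (1.63), DNAJC3 (1.57), SDF2L1 (1.00), DNAJB11 (0.63), HYOU1 (0.61) and HSP90B1 (0.57) were higher, and MANF (-0.26) and CRELD2 (0.15) were not called. Of the disulfide genes, ERO1LB (1.26) alone was called, with counts of 96 and 98 for DMSO and of 225 and 256 for THZ1. Both lectins, CANX (-0.48) and CALR (-0.04), were uncalled. In the translocon SEC61B (0.97) and SEC61A1 (0.69) were higher and SSR1 (-0.13) was not called, nor was PPP1R15B (-0.34).

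Set side by side, 9 genes were higher in both comparisons, CREB3L2, DNAJC3, EIF2AK3, ERN1, HSP90B1, HYOU1, OS9, PPP1R15A and SEL1L, and 1, HERPUD1, was lower in both. XBP1 and SDF2L1 fell in JJN3 but were higher with the THZ1 label of H929. The share of all genes called in both comparisons was not computed, so these counts only describe the set. The interaction, fitted over all 8 libraries, called the response more positive under the H929 labels for 19 of the 38 genes (50.0%) and more negative for 4 (10.5%), against 28.1% and 25.5% of the 16122 genes tested. In either direction it was called for 23, against 53.7% of all genes, and it was not called for 15. Among the genes called in both comparisons, the difference was called for EIF2AK3 (3.42), PPP1R15A (2.45), CREB3L2 (1.47) and SEL1L (0.60) and not for ERN1 (0.30, SE 0.123), DNAJC3 (0.38, SE 0.101), HSP90B1 (0.06, SE 0.132), HYOU1 (-0.04, SE 0.149), OS9 (0.08, SE 0.137) or HERPUD1 (0.45, SE 0.110). For ERN1, DNAJC3 and HERPUD1 the adjusted p of edgeR's interaction test was under 0.05, and only the limit of 0.5 left them uncalled. Over the 38 genes the log2 fold changes of the comparisons correlated at Pearson's r = 0.29 and Spearman's rho = 0.25, a description across genes, and 27 of 38 had the same sign. For all genes the share with the same sign was not computed. Treatment, light chain and any other difference between the libraries labelled H929 cannot be told apart in these differences.

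**Figure D5:**
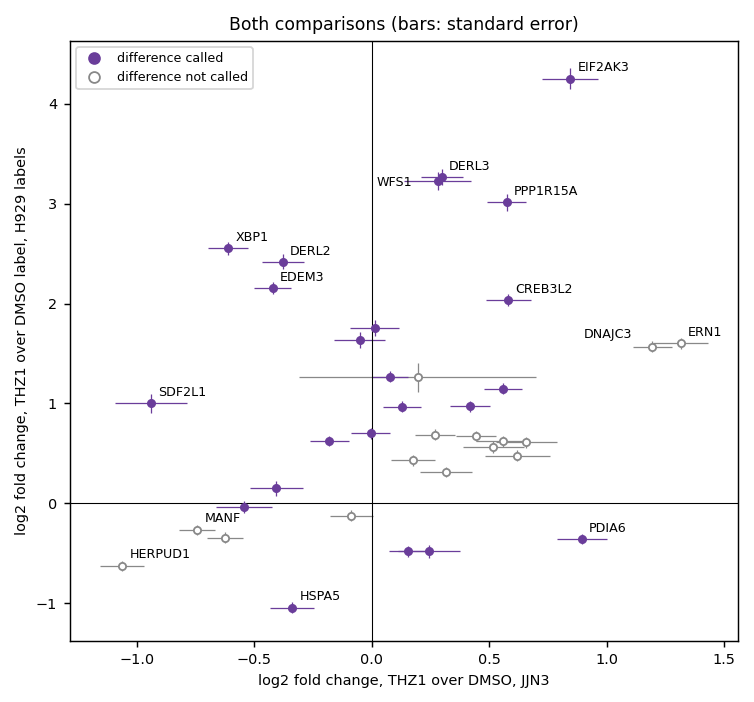
Log2 fold change of THZ1 over DMSO for the 38 genes in JJN3 (horizontal) and under the H929 labels (vertical), with bars for the standard error and filled purple points where the difference between the comparisons was called. The axes have different ranges: JJN3 values lie between -1.06 and 1.31, those of the H929 labels between -1.04 and 4.25, and XBP1 and SDF2L1 lie at the upper left.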

How the data were processed

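Single-end reads of 50 bp were aligned by the authors to hg19 with STAR 2.5.2a, with multimapping reads left out, and counted per Ensembl gene with featureCounts. The deposited tables hold raw counts per gene, and their strand setting is not given in the sources used here, so counts of overlapping and antisense genes are uncertain. The authors' DESeq2 1.12.4 tables hold their own fold changes and p-values, and only the gene symbols in them were used. Genes were tested with edgeR 4.0.16 in R 4.3.3 (TMM, filterByExpr with a minimum count of 10, quasi-likelihood test, Benjamini-Hochberg adjustment over all genes tested) within the 4 libraries of each line and, for the difference, over all 8. All 38 genes passed the filter. Genes were called at an adjusted p under 0.05 and a log2 fold change beyond 0.5. CPM are scaled by TMM factors within a line, and levels per kb by factors over 8 libraries and GENCODE canonical transcript lengths on GRCh37. Scripts were tested on simulated data. DESeq2 1.42.0, other scalings, filters, limits, a replicate block and leaving out each library were alternatives.

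The 38 genes, the other lists and the alternatives were chosen with earlier results of these data known. Values in every library were given for genes called in JJN3 and for ERN1, EIF2AK3, ATF6 and XBP1, and those of HSPA5, CANX, WFS1 and DERL3 were added after their values were seen. Of each other list, up to the 2 largest falls and 2 largest rises called in JJN3 were named, with ATF4, DDIT3, ATF3 and TRIB3, except for a gene that is not reported here.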

Additional observations from a re-analysis of the deposited data

Results flagged for a closer look

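By edgeR's interaction test over all 8 libraries with Benjamini-Hochberg adjustment, the log2 fold change differed between the comparisons for 23 of the 38 genes. That stands against 53.7% of the 16122 genes tested. Values are the log2 fold change under the H929 labels minus that in JJN3. It was more positive under the H929 labels for the 19 genes EIF2AK3 (3.42), XBP1 (3.17), DERL3 (2.98), WFS1 (2.96), DERL2 (2.81), EDEM3 (2.59), PPP1R15A (2.45), SDF2L1 (1.95), EDEM2 (1.75), DNAJB9 (1.69), CREB3L2 (1.47), SYVN1 (1.20), SEC61B (0.85), DNAJB11 (0.82), ATF6 (0.71), SEL1L (0.60), CRELD2 (0.57), EDEM1 (0.57) and CALR (0.52). It was more negative for the 4 genes PDIA6 (-1.24), CANX (-0.71), HSPA5 (-0.69) and ERO1L (-0.62). Among all genes tested, 28.1% were called more positive and 25.5% more negative. Adjusted p-values of the 23 genes ran from 1.29e-12 for XBP1 to 0.002 for CALR. The call for CALR was lost without JJN3 DMSO replicate 2 (0.48), JJN3 THZ1 replicate 2 (0.41) or H929 THZ1 replicate 1 (0.49). With total counts the difference was called for 24 genes as higher and 3 as lower, against 32% and 22.6% of all genes, without ERO1L (-0.48) and with DNAJC3 (0.53) among those added. The 3 largest differences, those of EIF2AK3, XBP1 and DERL3, rest on H929 labels that also differed in light chain. The part of this in them was not tested.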

How the results depend on the processing

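With 2 libraries per group the calls rest on a spread shared across genes, and ERO1LB, at 7 to 13 counts per JJN3 library, is limited by depth. DESeq2, its size factors, no filter, 1 CPM in 2 libraries and all 8 libraries in one fit kept every count of the 38 genes within 1.5 times. With total counts, 6 were higher in JJN3 and the median was 0.081, and the medians were 0.74 under the H929 labels and 0.68 for the difference. With the adjusted p alone, 10 were lower and 16 higher in JJN3 (30.1% and 28.9% of all genes), 8 and 28 under the H929 labels (40.9% and 41%), and 4 and 26 for the difference (29.7% and 32.3%). With a log2 fold change beyond 1, JJN3 had 1 lower and 2 higher (7.19% and 9.99% of all genes), the H929 labels 1 and 16 (21.2% and 23.6%), and the difference 1 and 12 (18.1% and 19.7%). Leaving out each library gave a median log2 fold change of 0.10 to 0.28 in JJN3 and of 0.68 to 0.72 under the H929 labels.

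Signs turned only for genes that were not called: in JJN3, ATF6 (0.012 with DESeq2 and with its size factors, 0.014 with 1 CPM in 2 libraries), EDEM2 (-0.091 with total counts, -0.030 with no filter, -0.0033 with all 8 libraries) and SYVN1 (-0.025 with total counts), and under the H929 labels CALR (0.011 with total counts). Without single libraries the ranges were -0.060 to 0.049 for ATF6, -0.099 to 0.099 for EDEM2, -0.20 to 0.69 for ERO1LB, -0.17 to 0.057 for DNAJB9 and -0.18 to 0.0045 for SSR1 in JJN3, and -0.073 to 0.016 for CALR under the H929 labels. The causes were not tested.

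The replicate differences of DMSO and THZ1 correlated at 0.00825 in JJN3 and -0.0193 under the H929 labels. Libraries with the same replicate number thus showed no shared deviation, which cannot tell whether their cultures were paired. With the replicate block, 6 were lower and 11 higher in JJN3 (median 0.19), against 21.5% and 20.7% of all genes. Under the H929 labels 2 were lower and 25 higher (32.2% and 32.7% of all genes). For the difference the counts were 4 and 19 (25% and 27.6% of all genes). All these counts were the same as without the block.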
